A study of Mus musculus with 4 samples.

Results

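The stefin A genes *Stfa1*, *Stfa2*, *Stfa2l1* and *Stfa3* were described in cardiac neutrophils after myocardial infarction and reperfusion (MI/R). They are 4 of the 25655 genes measured, and all 4 names were found in the data of every library. The members were taken by name, and the set was chosen from measured values of these same libraries, so their levels and ratios are a description and are not tested. Stefins are small cytosolic inhibitors of papain-family cysteine proteases such as cathepsins B, L and S, which they block by occupying the active-site cleft. In the mouse the stefin A gene has been duplicated into a cluster on 1 chromosome, and stefin A transcripts are known from neutrophils, other myeloid cells and skin.

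The study asked how the phosphatidylserine receptor CD300a acts in ischemic heart injury. RNA-Seq was done on CD45.2+CD11b+Ly6G+ cells that had been sorted from hearts on day 3 of reperfusion after a surgical MI/R, in which the left anterior descending artery of adult male mice was occluded and then reopened. The 4 groups were SiglecF lo neutrophils (sorted as SiglecF-negative) and SiglecF hi neutrophils (sorted as SiglecF-positive) of WT C57BL/6J mice and of *Cd300a-/-* mice, which lack the gene in all cells. Each group is 1 library made from a pool of 8 hearts. No difference therefore has a replicate check, no P value is given, and intervals in parentheses are 95% intervals that cover counting error only.

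Reads counted on genes numbered 9631901 for WT SiglecF lo, 10988619 for *Cd300a-/-* SiglecF lo, 19278243 for WT SiglecF hi and 17632989 for *Cd300a-/-* SiglecF hi neutrophils. Levels are given as TPM, the abundance of transcripts scaled to their length and to an equal total per library. *Cd300a* stood at 127 TPM in WT SiglecF lo and 163 TPM in WT SiglecF hi neutrophils, and at 1.06 and 0.740 TPM in the *Cd300a-/-* libraries of the same subsets. *Siglecf* was at 11.3 and 15.3 TPM in the WT and *Cd300a-/-* SiglecF lo libraries and at 354 and 405 TPM in the SiglecF hi libraries. The labels of genotype and subset thus fit the transcripts of the gene removed and of the sorting marker. *Ly6g*, the other sorting marker, was present in all libraries but far lower in the SiglecF hi cells, at 330, 889, 11.1 and 41.9 TPM in WT SiglecF lo, *Cd300a-/-* SiglecF lo, WT SiglecF hi and *Cd300a-/-* SiglecF hi neutrophils.

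*Stfa2l1*, named for its likeness to *Stfa2*, was the most abundant stefin A gene in every library. Its level was 3562 TPM (7669 counts) in WT SiglecF lo, 2279 TPM (5412 counts) in *Cd300a-/-* SiglecF lo, 754 TPM (2774 counts) in WT SiglecF hi and 581 TPM (1912 counts) in *Cd300a-/-* SiglecF hi neutrophils. By TPM it ranked 24, 49, 216 and 294 among all genes in these libraries. It was thus among the most abundant transcripts of the SiglecF lo cells, and the counting intervals of the 4 libraries did not overlap.

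*Stfa1*, a further stefin A inhibitor, was measured at 223 TPM (814 counts) in WT SiglecF lo, 170 TPM (686 counts) in *Cd300a-/-* SiglecF lo, 38.7 TPM (241 counts) in WT SiglecF hi and 14.0 TPM (78 counts) in *Cd300a-/-* SiglecF hi neutrophils. It followed the same order of libraries as *Stfa2l1*. *Stfa2* was at 144 TPM (349 counts), 283 TPM (756 counts), 22.7 TPM (94 counts) and 18.4 TPM (68 counts) in the same order. Its highest level was in the *Cd300a-/-* SiglecF lo library, and its intervals in the SiglecF hi libraries, 18.4 to 27.8 TPM in WT and 14.3 to 23.3 TPM in *Cd300a-/-*, overlapped.

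*Stfa3* differed most between the libraries. It was at 27.4 TPM (58 counts) in WT SiglecF lo and 173 TPM (404 counts) in *Cd300a-/-* SiglecF lo neutrophils, was without a count (0) in WT SiglecF hi neutrophils and stood at 9.27 TPM (30 counts) in *Cd300a-/-* SiglecF hi neutrophils. A count of 0 allows up to 3 counts among the 19278243 of that library as a 1-sided limit, and the 95% interval reaches 3.69. In WT neutrophils of both subsets the order was therefore *Stfa2l1*, *Stfa1*, *Stfa2*, *Stfa3*, with no overlap of the counting intervals. In *Cd300a-/-* SiglecF lo neutrophils *Stfa2* came second, and *Stfa3* (157 to 191 TPM) and *Stfa1* (158 to 184 TPM) could not be placed in order. The lower 3 genes also had neighbouring intervals that overlapped in *Cd300a-/-* SiglecF hi neutrophils.

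**Figure D1:**
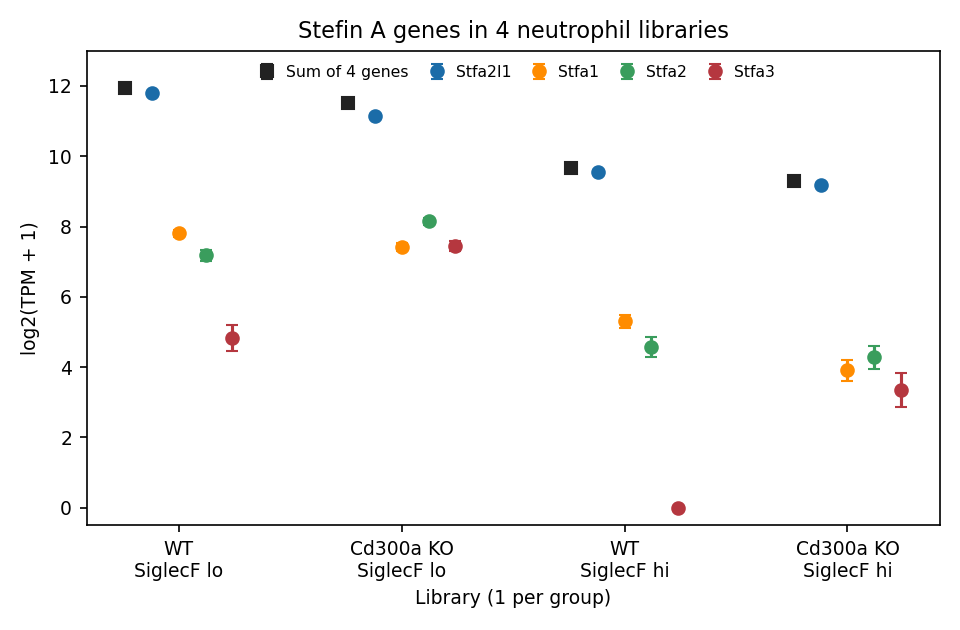
Levels of the 4 stefin A genes and of their sum, as log2(TPM + 1), in the 4 libraries, 1 per group, with 95% counting intervals (no interval is drawn for the 0 counts of *Stfa3*). *Stfa2l1* lies close to the sum throughout, and *Stfa3* runs from 0 TPM in WT SiglecF hi to 173 TPM in *Cd300a-/-* SiglecF lo neutrophils.

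The summed level of the 4 genes was 3957 TPM (3874 to 4040) in WT SiglecF lo, 2905 TPM (2838 to 2973) in *Cd300a-/-* SiglecF lo, 816 TPM (787 to 845) in WT SiglecF hi and 623 TPM (596 to 649) in *Cd300a-/-* SiglecF hi neutrophils. The sums rest on 8890, 7258, 3109 and 2088 counts. The family total therefore had the same order as *Stfa2l1*, which made up 90.0%, 78.4%, 92.5% and 93.3% of the summed TPM.

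The make-up of the sum set the *Cd300a-/-* SiglecF lo library apart. *Stfa2* and *Stfa3* together held 4.58% of the members' counts in WT SiglecF lo neutrophils (4.15% to 5.03%, exact Clopper-Pearson interval) and 16.0% in *Cd300a-/-* SiglecF lo neutrophils (15.1% to 16.8%). *Stfa3* alone held 0.652% (0.496% to 0.843%) and 5.57% (5.05% to 6.12%), and *Stfa2*, whose counts depend on reads of like sequence in *Stfa2l1*, held 3.93% and 10.4%. The joint share was 3.02% (2.45% to 3.69%) in WT SiglecF hi and 4.69% (3.83% to 5.69%) in *Cd300a-/-* SiglecF hi neutrophils. The share of *Stfa1* was close in the SiglecF lo libraries, 9.16% in WT (8.56% to 9.77%) and 9.45% in *Cd300a-/-* (8.79% to 10.1%), and lower in *Cd300a-/-* SiglecF hi (3.74%, 2.96% to 4.64%) than in WT SiglecF hi neutrophils (7.75%, 6.84% to 8.75%).

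**Figure D2:**
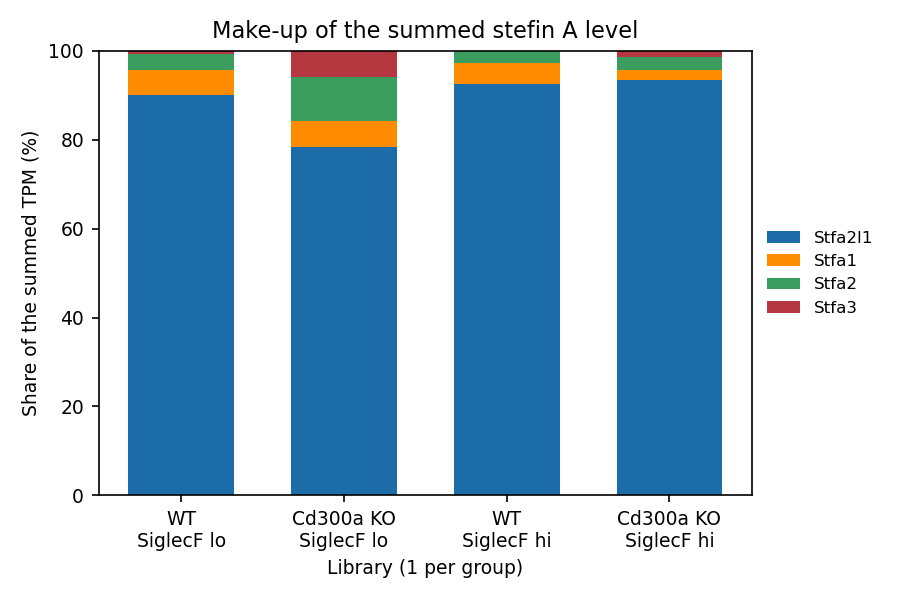
Share of the summed stefin A TPM held by each gene, in percent, stacked for each of the 4 libraries. *Stfa2l1* holds 78.4% in *Cd300a-/-* SiglecF lo neutrophils and 90.0% to 93.3% in the other libraries.

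The first comparison asked what the loss of CD300a did to these inhibitors in SiglecF lo neutrophils. Ratios are log2((TPM + 1) ratio), and a gene was counted as higher or lower when its ratio was past 0.5, among the 6523 genes whose TPM averaged over 10 across the 4 libraries. All 4 members were above this limit, *Stfa3* through its levels in the SiglecF lo libraries. In *Cd300a-/-* SiglecF lo neutrophils 2 of the 4 were higher than in WT, where 16.4% of all genes were, and 1 of the 4 was lower, where 19.9% were. Since these libraries were in view when the genes were chosen, nothing is read from those counts.

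*Stfa3* was 6.31-fold higher in TPM, a log2 ratio of 2.62 (2.23 to 3.00), and *Stfa2* was 1.96-fold higher, a log2 ratio of 0.97 (0.79 to 1.15). *Stfa2l1* was lower, with a log2 ratio of −0.64 (−0.69 to −0.59), and *Stfa1* had a ratio of −0.39 (−0.53 to −0.24), within the threshold. The sum had a ratio of −0.45 (−0.49 to −0.40), against a median of −0.02 over all genes. It followed *Stfa2l1*: without this gene the sum of the other 3 went the other way, from 395 TPM in WT to 627 TPM in *Cd300a-/-* neutrophils, a ratio of 0.67 (0.56 to 0.77), although *Stfa1* among them was lower. In bulk samples, fewer cells of a type and less RNA per cell cannot be told apart.

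In SiglecF hi neutrophils, 1 of the 4 members was higher in *Cd300a-/-* than in WT cells, where 3.31% of all genes were, and 1 was lower, where 3.46% were. *Stfa3* was the higher one, at least 11.2-fold higher against a floor of 3 counts in the WT library (a bound that leaves out the counting error of the 30 counts), and *Stfa1* was the lower one, with a log2 ratio of −1.40 (−1.75 to −1.06). *Stfa2l1* had a ratio of −0.38 (−0.46 to −0.29) and *Stfa2* a ratio of −0.29 (−0.72 to 0.14), which counting error alone covers. The sum had a ratio of −0.39 (−0.47 to −0.31), with a median of 0.04 over all genes. *Stfa3* was thus higher without CD300a in both subsets, while *Stfa2* was higher in the SiglecF lo subset and not detectably different in the SiglecF hi subset. The higher level of *Stfa2* holds for its single-gene value only. Summed with *Stfa2l1*, a gene of like sequence, the SiglecF lo ratio was −0.53.

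The genotype ratio of the sum hardly differed between the subsets, by −0.06 (−0.15 to 0.04) for SiglecF lo minus SiglecF hi. The same difference was 1.26 (0.80 to 1.73) for *Stfa2*, 1.02 (0.64 to 1.40) for *Stfa1* and −0.27 (−0.37 to −0.17) for *Stfa2l1*, and none is given for *Stfa3*, which had 0 counts in 1 library. The near-equal ratios of the sum therefore held members whose single-gene ratios moved apart in opposite directions. Summed with *Stfa2l1*, its closest relative in sequence, *Stfa2* had ratios of −0.53 in the SiglecF lo and −0.37 in the SiglecF hi subset. *Stfa1* summed with its own, *Cstdc5*, had ratios of 0.51 and −0.97.

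The next comparison set SiglecF hi against SiglecF lo neutrophils. All 4 members were lower in SiglecF hi cells of WT mice, where 7.47% of all genes were, and all 4 were lower in those of *Cd300a-/-* mice, where 7.97% were. *Stfa3* was over the TPM limit only through the SiglecF lo libraries, so its part in these counts follows from the limit, and the other 3 were above it in every library. In WT neutrophils the log2 ratio was −2.24 (−2.30 to −2.18) for *Stfa2l1*, −2.50 (−2.70 to −2.29) for *Stfa1* and −2.61 (−2.93 to −2.30) for *Stfa2*. *Stfa3* was at least 33.0-fold lower against a floor of 3 counts in the SiglecF hi library. This bound leaves out the counting error of its 58 counts in SiglecF lo cells. In *Cd300a-/-* neutrophils the log2 ratio was −1.97 (−2.05 to −1.89) for *Stfa2l1*, −3.52 (−3.83 to −3.20) for *Stfa1*, −3.87 (−4.22 to −3.53) for *Stfa2* and −4.08 (−4.57 to −3.60) for *Stfa3*. *Stfa2l1* thus had the ratio nearest to 0 in each genotype, although in WT mice its interval met those of *Stfa1* and *Stfa2*.

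The summed stefin A level was 4.85-fold lower in SiglecF hi than in SiglecF lo neutrophils of WT mice, a log2 ratio of −2.28 (−2.34 to −2.22), and 4.67-fold lower in *Cd300a-/-* mice, a ratio of −2.22 (−2.29 to −2.15). The median ratio over all genes was 0.53 in WT and 0.61 in *Cd300a-/-* mice, so most genes had a higher TPM in the SiglecF hi library. Of the 6523 genes, 3386 were higher and 487 lower in WT and 3692 higher and 520 lower in *Cd300a-/-* mice, whereas ratios centred on their median gave 1259 higher and 1363 lower genes for WT and 1382 higher and 1540 lower for *Cd300a-/-* mice. The 10 most abundant genes held 22.8% and 26.7% of the TPM of the WT and *Cd300a-/-* SiglecF lo libraries, and 12.3% and 11.8% in the SiglecF hi libraries. Relative to the medians, the ratio of the sum was −2.80 in WT and −2.83 in *Cd300a-/-* mice. The subset difference of the family total was therefore of nearly the same size in both genotypes on either scale, but this rested on *Stfa2l1*. Without it the ratio of the sum was −2.66 (−2.84 to −2.49) in WT and −3.88 (−4.10 to −3.66) in *Cd300a-/-* mice.

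The 4 genes lie on chromosome 16, within 299 kb of each other on GRCm39, the build of the deposited positions. *Stfa2l1* (ENSMUSG00000059657, chr16:35977181-35982323) and *Stfa1* (ENSMUSG00000071562, chr16:36097313-36105735) are on the plus strand. *Stfa2* (ENSMUSG00000022902, chr16:36224354-36228819) and *Stfa3* (ENSMUSG00000054905, chr16:36270899-36275754) are on the minus strand. Among them lie 5 further genes of the cluster from a list of stefin A relatives, and *Csta1*, also listed, lies outside them on the side of *Stfa2l1*.

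Of these 6 relatives, *Cstdc4* was the most abundant, at 2531, 1757, 375 and 371 TPM in WT SiglecF lo, *Cd300a-/-* SiglecF lo, WT SiglecF hi and *Cd300a-/-* SiglecF hi neutrophils, which was 71.1%, 77.1%, 49.7% and 63.9% of the level of *Stfa2l1*. *Cstdc5* was at 69.6, 247, 13.6 and 12.1 TPM, and so peaked in the *Cd300a-/-* SiglecF lo library as *Stfa2* and *Stfa3* did. *Csta3* (25.8, 3.60, 10.5 and 9.53 TPM) and *Csta2* (14.9, 15.7, 7.49 and 4.38 TPM) were low, *Cstdc6* had at most 9 counts, and *Csta1* had 0 counts in all 4 libraries. The members held 60.8%, 58.3%, 67.2% and 61.3% of the counts of the 10 cluster genes.

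Along the chromosome, the genes that were higher in *Cd300a-/-* SiglecF lo neutrophils stood side by side. The plus-strand genes had genotype ratios of −0.64 (*Stfa2l1*), −0.53 (*Cstdc4*, −0.59 to −0.47), −2.54 (*Csta3*, −3.55 to −1.54), 0.07 (*Csta2*, −0.45 to 0.59) and −0.39 (*Stfa1*). The minus-strand genes beyond them had ratios of 1.81 (*Cstdc5*, 1.61 to 2.01), 0.97 (*Stfa2*) and 2.62 (*Stfa3*). *Csta1* and *Cstdc6*, also on the minus strand, were under the TPM limit. The pattern was seen after the values were known and was not tested. It rests on single-gene values, and when genes of like sequence were summed, *Stfa2* with *Stfa2l1* had a ratio of −0.53 and *Cstdc5* with *Stfa1* one of 0.51.

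In SiglecF hi neutrophils *Stfa3* was the only one of these 8 genes with a genotype ratio past 0.5 upward, since *Cstdc5* had a ratio of −0.15 (−0.58 to 0.28) and *Stfa2* one of −0.29. Outside the cluster, the nearest gene over the TPM limit on the side of *Stfa2l1* was *Fam162a*, whose ratio was −1.16 in the SiglecF lo and −0.73 in the SiglecF hi subset. On the side of *Stfa3* it was *Cd86*, which encodes a costimulatory ligand of T cells, with ratios of 0.60 and 0.57. The next genes outward, *Kpna1* (0.15 and 0.18) and *Hcls1* (0.14 and 0.24), were within the threshold. *Cd86* was thus past the threshold upward in both subsets, as were 16.4% of all genes in the SiglecF lo and 3.31% in the SiglecF hi subset. *Fam162a*, on the other side, was past it downward, as were 19.9% and 3.46%. Whether either gene shares a change with the cluster was not tested.

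**Figure D3:**
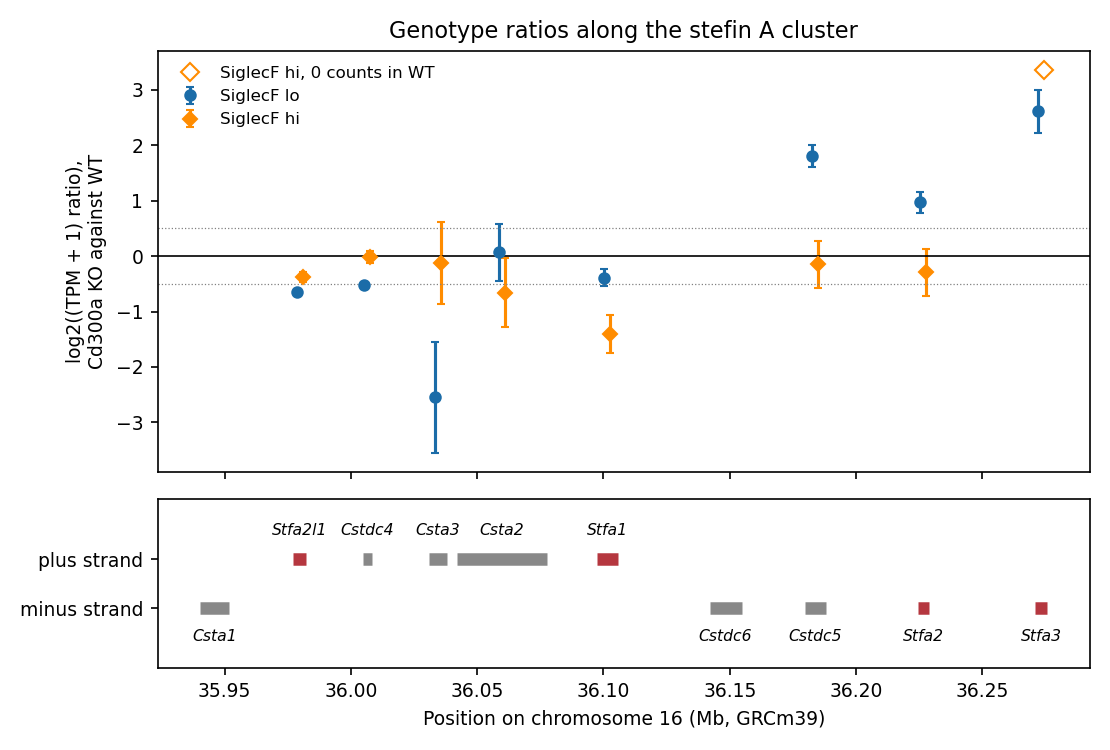
Top, log2((TPM + 1) ratio) of *Cd300a-/-* against WT neutrophils for the 8 cluster genes over the TPM limit, by position on chromosome 16, with 95% counting intervals. Dotted lines mark the threshold of 0.5, the open diamond marks *Stfa3* in SiglecF hi neutrophils, which had 0 counts in WT, and the lower strip shows the genes (members in red) on their strands, with *Cstdc5*, *Stfa2* and *Stfa3* high in the SiglecF lo subset.

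How far single genes can be told apart depends on their sequences. The members are held to be near-identical, but in the coding sequences of GENCODE M21 this was true of 1 pair. *Stfa2l1* and *Stfa2* were identical at 96.5% of 312 aligned bases. *Stfa3* was 81.7% identical to *Stfa2l1*, 81.1% to *Stfa2* and 79.8% to *Stfa1*, and *Stfa1* was 73.4% identical to *Stfa2l1* and 74.7% to *Stfa2*. The closest relative of *Stfa1* was *Cstdc5*, outside the 4 members, at 98.0%.

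The last 120 coding bases, stop codon included, show this. They are given 5′ to 3′ on the coding strand, with capitals where a gene differs from *Stfa2l1*. On GRCm38 they lie in 1 exon each, at chr16:36161753-36161872 (plus strand) in *Stfa2l1*, chr16:36404027-36404146 (minus) in *Stfa2*, chr16:36450609-36450728 (minus) in *Stfa3*, chr16:36285176-36285295 (plus) in *Stfa1* and chr16:36359460-36359579 (minus) in *Cstdc5*.
Stfa2l1: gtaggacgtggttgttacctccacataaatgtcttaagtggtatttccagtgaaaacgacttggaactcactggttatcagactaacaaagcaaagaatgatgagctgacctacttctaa
Stfa2: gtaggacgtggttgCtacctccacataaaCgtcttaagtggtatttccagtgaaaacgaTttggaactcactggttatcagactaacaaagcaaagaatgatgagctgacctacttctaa
Stfa3: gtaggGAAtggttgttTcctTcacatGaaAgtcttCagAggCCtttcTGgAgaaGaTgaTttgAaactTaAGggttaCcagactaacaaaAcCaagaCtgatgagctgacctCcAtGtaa
Stfa1: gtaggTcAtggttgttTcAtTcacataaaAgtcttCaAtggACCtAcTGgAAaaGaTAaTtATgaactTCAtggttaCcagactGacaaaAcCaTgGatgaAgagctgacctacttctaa
Cstdc5: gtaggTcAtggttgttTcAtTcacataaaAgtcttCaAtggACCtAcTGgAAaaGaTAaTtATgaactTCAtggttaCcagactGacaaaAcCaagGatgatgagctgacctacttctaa
*Stfa2* differed from *Stfa2l1* at 3 of these bases, *Stfa3* at 28 and *Stfa1* at 32, whereas *Cstdc5* differed from *Stfa1* at 2.

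Of the windows of 36 bases in the *Stfa3* transcript, 0 of 377 occurred in a transcript of any other gene. For *Stfa2l1* 36.5% of such windows were shared with another gene, for *Stfa2* 28.9% and for *Stfa1* 44.0%. At 75 bases the shares were 7.83%, 5.79% and 10.7%, and again 0 for *Stfa3*. No stretch of 36 bases in *Stfa3* thus matches another annotated transcript exactly, whereas the counts of the other 3 genes depend on how shared reads were assigned, which is not given in the sources used here.

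Each of these 3 members was therefore also read in a sum with its closest relative, a choice made after the data were seen. *Cstdc4* and *Csta2*, 96.9% identical in coding bases, share 23.5% and 14.2% of their windows of 75 bases and were not summed, so their single ratios carry the same limit. *Cstdc5* shared 62.3% of its windows of 36 bases and 35.8% of those of 75 with other genes, the most of the cluster, and its single ratio is limited likewise. *Stfa2l1* and *Stfa2* together had genotype ratios of −0.53 (−0.58 to −0.48) in the SiglecF lo and −0.37 (−0.46 to −0.29) in the SiglecF hi subset. *Stfa1* and *Cstdc5* together rose in the SiglecF lo subset from 293 TPM with to 417 TPM without CD300a, a ratio of 0.51 (0.40 to 0.62), and had a ratio of −0.97 (−1.25 to −0.70) in SiglecF hi neutrophils. Within the summed pairs the partners moved in opposite directions in the SiglecF lo subset. The higher level of *Stfa2* and the lower level of *Stfa1* in *Cd300a-/-* SiglecF lo neutrophils are thus uncertain as values of single genes. For *Stfa3* no exact match of 36 bases was found, but reads assigned despite mismatches were not examined.

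The members also resembled each other before their transcript starts. RefSeq promoters (GRCm38.p6) were matched by name for all 4 members and for 9 of the 10 cluster genes. Over the 250 bases before the start, the members were 79.8% to 89.4% identical in pairs, highest for *Stfa2l1* and *Stfa2*, and *Stfa1* was 81.2% identical to its relative *Cstdc5*. They are shown because genes with levels from 27.4 to 3562 TPM in the same WT SiglecF lo library share much of this stretch. The 150 bases before the start are given 5′ to 3′ on the strand of the gene, with capitals for runs of at least 10 bases that are identical in all 4 members. They lie at chr16:36156661-36156810 (plus strand) for *Stfa2l1*, chr16:36276998-36277147 (plus) for *Stfa1*, chr16:36408364-36408513 (minus) for *Stfa2* and chr16:36455393-36455542 (minus) for *Stfa3*.
Stfa2l1: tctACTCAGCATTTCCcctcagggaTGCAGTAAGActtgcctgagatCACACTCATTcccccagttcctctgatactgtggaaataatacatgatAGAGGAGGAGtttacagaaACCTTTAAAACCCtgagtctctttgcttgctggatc
Stfa1: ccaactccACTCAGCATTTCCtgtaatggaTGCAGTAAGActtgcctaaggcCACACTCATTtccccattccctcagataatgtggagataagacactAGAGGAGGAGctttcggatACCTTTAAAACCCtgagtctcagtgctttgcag
Stfa2: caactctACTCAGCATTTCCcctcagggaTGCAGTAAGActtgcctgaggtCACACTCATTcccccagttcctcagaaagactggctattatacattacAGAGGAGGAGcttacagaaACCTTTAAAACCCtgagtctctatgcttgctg
Stfa3: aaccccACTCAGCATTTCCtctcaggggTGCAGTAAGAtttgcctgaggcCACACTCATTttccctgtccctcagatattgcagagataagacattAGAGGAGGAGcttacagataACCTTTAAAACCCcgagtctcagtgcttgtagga
The shared runs covered 56 of the 150 bases, 37.3%, in each member. The run ACCTTTAAAACCC was found, on either strand, in 9 of 32851 promoters, among them those of the relatives *Csta3*, *Cstdc3*, *Cstdc4* and *Cstdc5*, and ACTCAGCATTTCC in 10, while AGAGGAGGAG was found in 337.

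Motifs were searched on both strands of the promoters, from 250 bases before to 50 after the start. The letters TTNNGNAA, like sites of C/EBP factors, occurred in 3 of the 4 members and in 40.7% of all promoters. The letters GAGGAA, like the core bound by PU.1, occurred in 4 of 4 and in 28.3%. Neither TTCNNNGAA, like STAT sites (8.30% of all promoters), nor the TATA box TATAAA (13.6%) was found in a member. The letters TTTAAA, looked for after the sequences were seen and lying within the run ACCTTTAAAACCC, began 33, 30, 29 and 31 bases before the starts of *Stfa2l1*, *Stfa1*, *Stfa2* and *Stfa3* and occurred in 13.2% of all promoters. The 4 members thus carried the same letters at nearly the same distance from their starts. These letters were not confined to them, since 8 of the 9 cluster promoters held TTTAAA, 29 bases before the start in *Cstdc4*, but 9 in *Cstdc5*, 77 in *Csta3* and 230 in *Csta1*.

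Stefin A belongs with other cystatins, of which 13 of 14 listed were found and 7 had 0 counts in all 4 libraries. *Cstb*, the cytosolic stefin B, was at 902, 640, 1283 and 1230 TPM in WT SiglecF lo, *Cd300a-/-* SiglecF lo, WT SiglecF hi and *Cd300a-/-* SiglecF hi neutrophils. *Cst3*, the secreted cystatin C, was at 2628, 1619, 3344 and 3184 TPM. Both had higher TPM in SiglecF hi cells, where the stefin A sum was lower: the subset ratio was 0.51 in WT and 0.94 in *Cd300a-/-* mice for *Cstb*, and 0.35 and 0.98 for *Cst3*. In WT mice this direction depended on the scale, since relative to the median of all genes the ratio was −0.02 for *Cstb* and −0.18 for *Cst3*, against 0.33 and 0.36 in *Cd300a-/-* mice. With TMM scaling the WT ratios were −0.03 and −0.19. In SiglecF lo neutrophils their genotype ratios were −0.50 and −0.70, on the side of *Stfa2l1*. *Cst7*, *Ahsg*, *Fetub* and *Cst6* stood at 5.94 TPM or less in each library.

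In WT mice the stefin A sum (3957 TPM) was above *Cstb* and *Cst3* in SiglecF lo neutrophils and below both in SiglecF hi neutrophils (816 TPM). The proteases that stefins inhibit also had higher TPM in SiglecF hi cells. The 10 papain-family cathepsins summed to 4381, 3084, 9981 and 8462 TPM in the 4 libraries, led by *Ctss* at 2023, 1184, 3974 and 3417 TPM. All 8 over the TPM limit were higher in SiglecF hi cells of WT mice, where 51.9% of all genes were, with a median ratio of 1.04 against 0.53 for all genes, and all 8 in *Cd300a-/-* mice, where 56.6% were, with medians of 1.19 and 0.61. *Ctsk* and *Ctso* passed this limit mainly through the SiglecF hi libraries, so their part in the count follows in part from the limit, and the other 6 were above it in every library. After centring 4 of the 8 stayed past the threshold in WT (19.3% of all genes) and 5 in *Cd300a-/-* mice (21.2%), and with TMM scaling 4 (20.1% of all genes) and 6 (24.2%), a count made after the data were seen. All 8 ratios stayed above 0 on each scale. *Ctsb* had ratios of 1.73 and 1.67. The stefin A sum and its target proteases thus had subset ratios of opposite sign in these libraries, with that of some cathepsins small after centring. Macrophage genes moved as much as the cathepsins, with 7 of 8 higher in WT and 8 of 8 in *Cd300a-/-* mice and medians of 1.38 and 1.18, and after centring 7 and 5 were higher. *Mertk* passed the TPM limit only through the SiglecF hi libraries, so its part in these counts follows in part from the limit. The other 7 macrophage genes were above it in every library. The paper gates cardiac macrophages as Ly6G-negative and sorted Ly6G+ cells for these libraries, but the share of macrophages in them was not measured. A change in the cathepsins and a change in the share of macrophages cannot be told apart here.

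Without CD300a, 3 of the 8 cathepsins (*Ctss* −0.77, *Ctsk* −0.63 and *Ctsl* −0.50, which was within the threshold with TMM scaling and after centring) were lower and 1 (*Ctso*, 0.67) was higher in SiglecF lo neutrophils, where 19.9% of all genes were lower and 16.4% higher, with a list median of −0.44. The ratios of *Ctsk* (−1.12 to −0.14) and *Ctso* (0.38 to 0.95) rest on low levels. *Ctsk* was at 7.59 and 4.55 TPM and *Ctso* at 6.73 and 11.3 TPM in the WT and *Cd300a-/-* SiglecF lo libraries. In SiglecF hi neutrophils 0 of 8 cathepsins were past the threshold, where only 3.31% of all genes were higher and 3.46% lower, with a list median of −0.22. The stefin A sum had ratios of −0.45 and −0.39 in the same libraries. Among serine proteases of neutrophil granules and their inhibitors, *Slpi*, a secreted inhibitor of elastase, was at 2301, 2130, 419 and 402 TPM, close to the subset difference of the stefin A sum. *Serpinb1a* was higher in *Cd300a-/-* SiglecF lo (1.79, 1.56 to 2.02) and SiglecF hi neutrophils (0.59, 0.32 to 0.85).

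Genes of neutrophil granules and maturation shared the subset difference of the stefins but not the genotype ratio of *Stfa2l1*. Of the 18 listed, 16 were lower in SiglecF hi cells in each genotype, where 7.47% of all genes were in WT and 7.97% in *Cd300a-/-* mice, with list medians of −2.68 and −2.83. *Camp* and *Itgb2l* passed the TPM limit mainly through the SiglecF lo libraries, so their part in the count follows in part from the limit, and the other 16 listed were above it in every library. In *Cd300a-/-* SiglecF lo neutrophils 13 were higher (16.4% of all genes) and 0 lower, with a median of 0.92, and in SiglecF hi neutrophils 11 were higher (3.31% of all genes) and 0 lower, with a median of 1.05. In SiglecF lo neutrophils *Stfa3* (2.62, 2.23 to 3.00) could not be told apart, within counting error, from the highest of them, *Cd177* at 2.36 (2.29 to 2.43). *Stfa2* (0.97) lay near *Retnlg* at 0.99 and *Padi4* at 0.98. The most abundant, *S100a9*, had a ratio of 0.23, and the granule gene *Ngp* one of 1.39. In this subset *Stfa2* thus lay in the range of the list and *Stfa3* at its upper end, not above it beyond counting error. *Stfa2l1* and *Stfa1* lay below the lowest gene of the list, *Chil3* at −0.00475. The places of *Stfa2* and *Stfa1* hold for single-gene values only, since the sums with their closest relatives (−0.53 and 0.51) would put *Stfa2* below the list and *Stfa1* inside it. In SiglecF hi neutrophils *Stfa2* (−0.29) could not be told apart from the lowest, *Chil3* at −0.12, within counting error, and *Stfa3*, with 0 counts in WT, was not placed.

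Of the 8 neutrophil identity genes, which overlap with that list, 2 were higher in *Cd300a-/-* SiglecF lo neutrophils (*Ly6g* at 1.43 and *Itgam* at 0.58) and 0 lower, where 16.4% of all genes were higher and 19.9% lower. In SiglecF hi neutrophils 1 was higher, *Ly6g* at 1.82, where 3.31% of all genes were. Between subsets, 4 of the 8 were lower in SiglecF hi cells of WT mice (7.47% of all genes) and 6 in those of *Cd300a-/-* mice (7.97%), with list medians of −0.83 and −1.01, and only the sorting marker *Siglecf* was higher (4.86 and 4.64). Of 9 transcription factors of neutrophil maturation, 7 were over the TPM limit, and *Cebpe* (0.57) and *Stat3* (0.51) were higher in *Cd300a-/-* SiglecF lo neutrophils, both just past the threshold and beside 16.4% of all genes. The most abundant, *Cebpb*, had a ratio of 0.04. No factor was past the threshold between genotypes in SiglecF hi neutrophils.

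Markers of other cells were read beside the stefins. Keratinocyte genes, which mark skin, another known source of stefin A, summed to 0, 2.65, 2.01 and 3.34 TPM in the 4 libraries, with *Krt10* highest at 2.09 TPM and 3 of 10 at 0 in all libraries. Mast cell and basophil genes were at 0 in all libraries for 4 of 6, and *Kit* was at 1.15, 13.2, 1.50 and 1.45 TPM. The eosinophil gene *Epx* was at 0 in all libraries, while *Ear2* made up most of that list's 173, 87.9, 117 and 120 TPM.

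Macrophage genes summed to 3272, 3072, 8289 and 7225 TPM, with *C1qb* at 839, 754, 2257 and 2036 TPM the most abundant except in *Cd300a-/-* SiglecF lo neutrophils, where *C1qa* was at 755 TPM. Between subsets they were thus higher where the stefin A sum was lower, whereas between genotypes both sums were lower in *Cd300a-/-* cells. The 8 macrophage genes did not go in 1 direction between genotypes in the SiglecF lo subset, with 4 ratios above and 4 below 0, a median of −0.07 and only *Mrc1* (0.66) past the threshold, upward as were 16.4% of all genes. Of all 6523 genes over the TPM limit, 3185 were above and 3338 below 0 in this comparison. In the SiglecF hi subset 7 of the 8 were below 0, as were 2841 of the 6523 genes. The list median was −0.13, against 0.04 for all genes, and none was past the threshold. Fibroblast genes summed to 829, 769, 1765 and 1211 TPM with *Dcn* leading. In *Cd300a-/-* SiglecF hi neutrophils 3 of the 4 over the TPM limit, *Col1a1* (−0.64), *Col1a2* (−0.69) and *Col3a1* (−0.65), were lower, where 3.46% of all genes were, with a list median of −0.65. Endothelial genes summed to 513, 153, 319 and 427 TPM with *Fabp4* leading, and cardiomyocyte genes to 41.0, 25.0, 45.6 and 62.6 TPM. In *Cd300a-/-* SiglecF lo neutrophils all 4 endothelial genes over the TPM limit were lower, where 19.9% of all genes were, with a list median of −1.54, and 2 of the 4 were above the limit in every library. The part of these cells in the stefin A values was not tested.

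The genes nearest to the stefin A sum were found by the Euclidean distance between centred log2(TPM + 1) profiles over the 4 libraries, among the other 6519 genes over the TPM limit. The nearest 5 were *Rgs5* (distance 0.20), *Cstdc4* (0.37), *Slpi* (0.38), *Cxcr1* (0.38) and *Asprv1* (0.39). *Rgs5*, a regulator of G-protein signalling, was at 72.9, 53.0, 12.4 and 11.4 TPM. *Cxcr1*, a chemokine receptor, was at 58.3, 62.4, 14.1 and 10.4 TPM, and *Asprv1*, an aspartic protease, was at 1214, 1258, 256 and 210 TPM. Among the members, *Stfa2l1* lay at 0.20 from the sum, *Stfa1* at 1.05, *Stfa2* at 1.41 and *Stfa3* at 4.07. The 5 other genes were picked as the nearest, and *Stfa2l1* made up most of the sum. That they lay nearer to it than 3 of its own 4 members did follows largely from this, and nothing is read from it.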

How the data were processed

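RNA-Seq values of 4 libraries of cardiac neutrophils were used, 1 per group. Per the methods of the study, poly(A) RNA was sequenced as paired-end reads and quantified in CLC Genomics Workbench. The submitters' processing notes name the build GRCm39. The authors' tables hold unnormalized whole-number counts per gene, RPKM (scaled to length and depth) and TPM, whose total is equal in all libraries. Their column CPM, a normalized signal as deposited by the authors, is the count per library total times 1 factor per library, checked here to be the inverse of the TMM factor.

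TPM and counts were used. RPKM and CPM served only for checks. Ratios are log2((TPM + 1) ratio), with 95% Poisson intervals of the counts, and genes with a mean TPM over 10 were counted past 0.5. With 0 counts in a library, a floor of 3 counts gave a bound on the fold. The steps were tested on simulated data. No test compared groups, since each has 1 library.

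The members and lists were chosen with earlier results of these data known. Genes named are the members, cluster genes and cystatins with over 3 counts in a library, the sorting markers and *Cd300a*, the 5 genes nearest to the sum, and, of each other list, genes past 0.5 and the most abundant gene. For long lists only some are given. *Fam162a*, *Cd86*, *Kpna1*, *Hcls1* and genes set beside a member for comparison were named after their values were seen.

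Alternatives were a pseudocount of 0.1, TMM-scaled values, centring on the median, sums with other genes, a mean TPM over 1 or no limit, and a threshold of 1. Sequences came from GENCODE M21 (GRCm38) and RefSeq (GRCm38.p6), whose positions were not mixed with those of the deposited data. Planned protein identities were replaced by those of coding bases. Python 3.11.15, numpy 2.4.6, pandas 2.3.3, scipy 1.17.1, biopython 1.88 and matplotlib 3.10.9 were used, with edgeR 4.0.16 in R 4.3.3 for TMM factors.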

Additional observations from a re-analysis of the deposited data

Results flagged for a closer look

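In each case here 1 ratio had the opposite sign in the paired comparison, in libraries without replicates, and the difference between the ratios was not tested. *Stfa2* had a log2 genotype ratio of 0.97 (0.79 to 1.15) in SiglecF lo and −0.29 (−0.72 to 0.14) in SiglecF hi neutrophils, a difference of 1.26. *Cstdc5*, its neighbour on the minus strand, had ratios of 1.81 (1.61 to 2.01) and −0.15 (−0.58 to 0.28), a difference of 1.96. For both genes the interval in SiglecF hi neutrophils includes 0, so the opposite sign there is not beyond counting error. Both also rest on single-gene values. In SiglecF lo neutrophils *Stfa2* summed with *Stfa2l1* had a ratio of −0.53, and *Cstdc5* summed with *Stfa1* one of 0.51.

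The low cluster genes gave less precise cases. *Csta3* had a subset ratio of −1.23 (−1.89 to −0.57) in WT and 1.19 (0.14 to 2.25) in *Cd300a-/-* mice, a difference of −2.42, and the latter rests on 6 counts in the *Cd300a-/-* SiglecF lo library. *Csta2* had genotype ratios of 0.07 (−0.45 to 0.59) in SiglecF lo and −0.66 (−1.28 to −0.03) in SiglecF hi neutrophils, a difference of 0.73 (−0.08 to 1.54). The intervals of the SiglecF lo ratio and of this difference include 0, so the opposite sign is not beyond counting error.

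Of the cathepsins, *Ctso* had genotype ratios of 0.67 (0.38 to 0.95) in SiglecF lo and −0.15 (−0.29 to −0.01) in SiglecF hi neutrophils, a difference of 0.82.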

How the results depend on the processing

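The cause of each change was not tested. Of 48 values of single members under another pseudocount, TMM scaling or centring, 31 moved by less than counting error, 17 moved further and 0 changed sign. The sum in SiglecF lo neutrophils went from −0.45 to 0.67 between genotypes without *Stfa2l1*. Without this gene its other ratios were −0.55 between genotypes in SiglecF hi neutrophils, and −2.66 in WT and −3.88 in *Cd300a-/-* mice between subsets. With all cluster genes the sum had −0.26 between genotypes in SiglecF hi neutrophils and −2.43 between subsets in WT mice. The difference between subsets of its genotype ratio went from −0.06 to 0.0182 with TMM scaling, within counting error.

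Between subsets, TMM scaling gave −2.82 (sum), −2.77 (*Stfa2l1*), −2.96 (*Stfa1*), −2.94 (*Stfa2*) and −2.93 (*Stfa3*) in WT mice, and −2.84 (sum), −2.54 (*Stfa2l1*) and −3.88 (*Stfa1*) in *Cd300a-/-* mice. Centring gave −2.80, −2.76, −3.02, −3.14 and −5.35 in the same order in WT mice, and −2.83, −2.58, −4.13, −4.49 and −4.70 in *Cd300a-/-* mice. The fitted ratios of *Stfa3* against 0 counts depend on the pseudocount by construction. Between genotypes in SiglecF hi neutrophils its ratio was 6.55 with a pseudocount of 0.1 and 1.33 with TMM scaling, and between subsets in WT mice it was −8.10 with a pseudocount of 0.1.

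Summing each gene with its nearest relative, an alternative chosen after seeing the data, turned the genotype ratio in SiglecF lo neutrophils of *Stfa1* to 0.51 and that of *Stfa2* to −0.53, the value also reached by *Stfa2l1*. It gave *Stfa1* −0.97 between genotypes in SiglecF hi neutrophils and −3.95 between subsets in *Cd300a-/-* mice, and *Stfa2* −2.25 in WT and −2.09 in *Cd300a-/-* mice between subsets, the latter also for *Stfa2l1*.

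Genes past the threshold between genotypes numbered 2370 higher and 2808 lower in SiglecF lo neutrophils with a mean TPM over 1, 2928 and 3548 without a limit, and 219 and 392 with a threshold of 1. In SiglecF hi neutrophils these were 806 and 910, 1249 and 1425, and 24 and 22. Between subsets they were 6241 higher and 1076 lower, 7156 and 1657, and 1325 and 195 in WT mice, and 6646 and 973, 7559 and 1437, and 1739 and 236 in *Cd300a-/-* mice. Centring gave 1259 and 1363 in WT and 1382 and 1540 in *Cd300a-/-* mice. With a mean TPM over 1, 2 of the 5 genes nearest to the sum were shared.

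No paired analysis was possible because each group has 1 library. Differences between mice are inside each pool and were not measured. With 30 counts or fewer of *Stfa3* in the SiglecF hi libraries, smaller differences of this gene were not detectable there, and the level of *Stfa2l1* rests on at least 1912 counts. Sorting and library preparation happened once per group, so their effect and that of genotype or subset cannot be told apart.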
